A study of Schmidtea mediterranea with 5 samples.

Results

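Of 82843 transcripts of the planarian flatworm Schmidtea mediterranea, 40 were selected on their levels, as those standing highest in the libraries made 1 and 2 days after light-exposed animals went back to the dark. A transcript is a contig of an assembled transcriptome, named by its SmedASXL number. The choice was made among 12878 transcripts whose mean level over the 5 libraries reached 5 CPM, where 1 CPM is 1 read in every 1000000 reads of a library. Each was scored as the lower of its 1-day and 2-day levels minus the highest of its levels in the other 3 libraries, on the log2(CPM + 1) scale, and the 40 highest scores were taken. The values described here therefore chose the transcripts, and none of the differences below is tested.

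The animals were the clonal asexual strain CIW4, sequenced whole, and the labels describe all of them as wild type. The control was untreated and kept in the dark. The light library came from animals at the end of 8 days of depigmentation by light. The 3 dark-return libraries came from animals that had the same 8 days of light and then 1, 2 or 8 days back in the dark. Each library is a mix of 3 biological replicates in equal amounts, per the design text, so the conditions have 1 library each and the spread between animals was not measured. Per the labels the animals were starved for 1 week before collection, and the design text describes the animals returned to the dark as starved. Time since the last meal cannot be told apart from time in the course where it differed between groups.

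Planarians carry body pigment in specialised cells under the epidermis. Prolonged light destroys these cells, and after return to darkness new pigment cells are made from the animal's pluripotent stem cells, the neoblasts. The series title names transcription factors of the FOX and ETS families as regulators of that lineage. The deposited table pairs contig numbers with no gene name, so no gene, role or cell type is assigned to any of the 40, and pigment cell markers could not be looked up. In whole animals, fewer cells of a type and less RNA per cell cannot be told apart.

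The libraries held 38447289 to 50045371 reads. Every one of the 40 had at least 109 reads in each library, and 1 read was worth 0.0200 to 0.0260 CPM. Mean levels over the 5 libraries ran from 5.19 to 2232 CPM, with a median of 14.2 CPM against 24.1 CPM for all 12878. Of the 40, 12 had a mean under 10 CPM, 24 lay between 10 and 100 CPM, and SmedASXL_018149, SmedASXL_018712, SmedASXL_018843 and SmedASXL_016336, 4 in all, were above. The share of reads that fell on the 40 together was 0.295% in the control, 0.314% in light, 0.440% at 1 day of dark return, 0.444% at 2 days and 0.353% at 8 days. The mean of the other 3 libraries alone was under 5 CPM for 5 of the 40, SmedASXL_004258, SmedASXL_000375, SmedASXL_059545, SmedASXL_076298 and SmedASXL_011766. These 5 passed the level filter through the 2 libraries in which they were chosen to be high.

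A few transcripts stood well above the rest of the set. SmedASXL_002439 had the highest score, 1.08 log2 units. From 4.88 CPM in the control and 10.9 CPM in light, its level went to 24.1 CPM at 1 day of dark return and 44.4 CPM at 2 days, and was 9.31 CPM at 8 days. The 1-day level was 2.21-fold above the light library, with a 95% counting interval of 1.97 to 2.48, and the 8-day level was 0.854 of that in light (0.746 to 0.979). SmedASXL_006969 came next with a score of 0.61. It stood at 5.53 CPM in the control, 12.3 CPM in light, 19.3 and 20.6 CPM after 1 and 2 days, and 11.4 CPM after 8 days. Both were lowest in the control, already higher in the light library, and higher again in the early dark. The counting intervals cover counting error only.

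SmedASXL_004258 and SmedASXL_000375 followed, with scores of 0.46 and 0.43 and a different course. SmedASXL_004258 stood at 4.29 CPM in the control, 3.07 CPM in light, 9.35 and 12.4 CPM after 1 and 2 days, and 6.52 CPM after 8 days. SmedASXL_000375 stood at 3.66 CPM in the control, 2.94 CPM in light, 7.04 and 9.47 CPM after 1 and 2 days, and 4.96 CPM after 8 days. Both were lowest in light, highest after 2 days, and still above the light library after 8 days, by 2.12-fold (interval 1.71 to 2.65) and 1.69-fold (1.34 to 2.13). The ratio of light to control was 0.716 (0.564 to 0.905) for SmedASXL_004258. For SmedASXL_000375 it was 0.804 (0.626 to 1.03), so its low level in light was within counting error of the control. From library to library the reads of the pair stayed at 1 ratio to each other, with a chi-square of 3.48 where the 95% point for 4 degrees of freedom is 9.49. Of all pairs among the 12878 transcripts, 15.7% stay under that point, so this alone sets no pair apart. Contigs that share sequence can share reads, and whether these do was not tested. Both owe their place over the level filter to the early libraries, since their mean in the other 3 was 4.63 and 3.85 CPM.

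**Figure D1:**
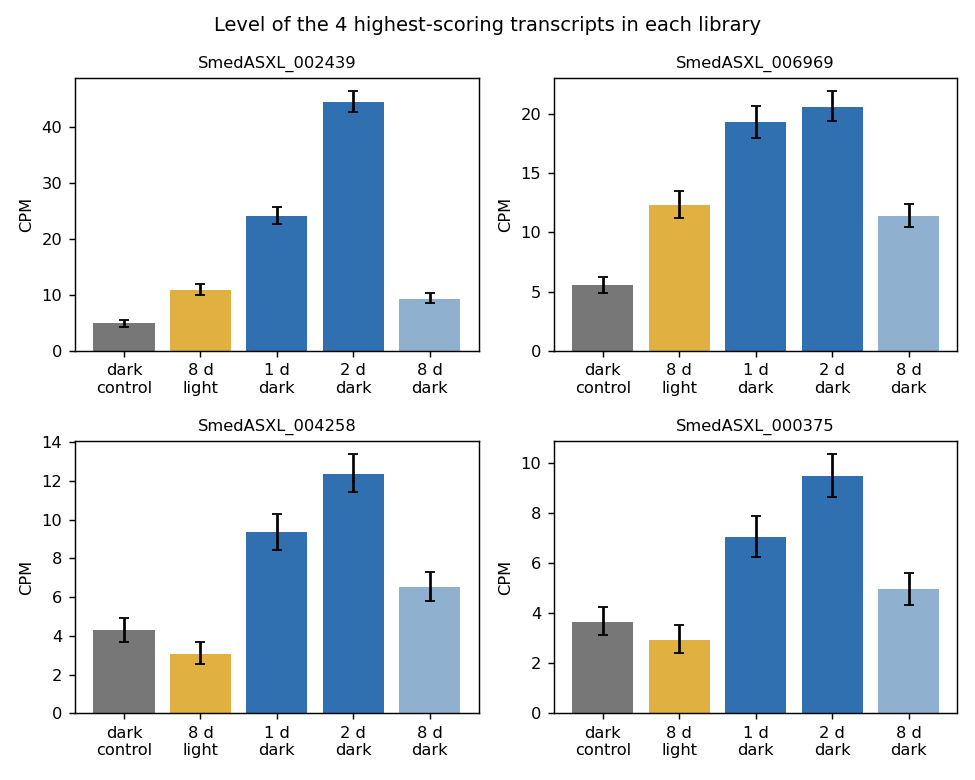
Level in CPM (vertical axes, each from 0) of the 4 highest-scoring transcripts in the 5 libraries, 1 library per bar, with exact 95% Poisson intervals for counting error. SmedASXL_002439 and SmedASXL_006969 are lowest in the control, whereas SmedASXL_004258 and SmedASXL_000375 are lowest in light. All 4 have their highest bar after 2 days in the dark. For SmedASXL_000375 the counting interval of light to control included 1 (0.626 to 1.03). For SmedASXL_006969 that of 2 days to 1 day did (0.974 to 1.17).

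The remaining scores were small. No transcript after the first 4 reached 0.40, and 33 of the 40 scored under 0.30. SmedASXL_016361, the fifth, had 26.1 CPM in the control, 29.1 CPM in light, 40.8 and 37.8 CPM after 1 and 2 days, and 29.0 CPM after 8 days, a score of 0.37. Its 3 reference libraries lay close together and both early libraries lay above them. SmedASXL_011406 had a similar shape at a lower level, with 5.21, 5.93, 8.74, 8.09 and 6.17 CPM in the control, in light and after 1, 2 and 8 days. SmedASXL_076298, the lowest of the 40 by mean level, had 4.31, 4.32, 6.13, 6.33 and 4.85 CPM in the same order. SmedASXL_008917 stood at 11.6, 14.8, 20.9, 18.3 and 11.8 CPM, so that after 8 days it had the control's level. At the edge of the set, SmedASXL_072961 and SmedASXL_019433 were the last inside, both with a score of 0.20. SmedASXL_012429 and SmedASXL_010469 were the first outside, also at 0.20.

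The same score was computed for each of the other 9 pairs of libraries as a reference for noise. Every library is a different condition, so these scores can also hold differences between conditions, which cannot be told apart from noise here. For the 1-day and 2-day pair the 40 scores ran from 1.08 down to 0.198. The highest score of the other pairs ran from 0.25 to 1.67, and their 40th score from 0.10 to 0.641. The control and 8-day pair had the largest scores, from 1.67 to 0.641. In all, 3 of the 9 pairs had a 40th score at or above 0.198, the others being the control with the 1-day library at 0.198 and the light with the 1-day library at 0.209. The 2-day and 8-day pair was close below, from 1.10 to 0.188. SmedASXL_002439 was exceeded by the highest score of 2 of the 9 pairs, the control with 8 days and 2 days with 8 days. Rank against rank, the early pair's scores at ranks 2 and 4 were each exceeded in 2 of the 9 pairs. Against the highest scores, more pairs exceeded them. Besides the pairs that exceeded SmedASXL_002439, rank 2 (0.610) fell below the control with 2 days (0.783) and light with 8 days (1.01). Rank 4 (0.432) fell below all of these and the control with light (0.602), control with 1 day (0.483) and light with 1 day (0.484).

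Both early libraries stood above all 3 others for 1054 of the 12878 transcripts, which is 8.18%; the matching share ran from 3.53% for the control and 2-day pair to 21.4% for the control and 8-day pair. A score of at least 0.30 was reached by 7 transcripts for the early pair and by 0 to 306 for the other pairs, 4 of which had 7 or more. Since each library is 1 pool, an early response and a difference between pools cannot be told apart.

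**Figure D2:**
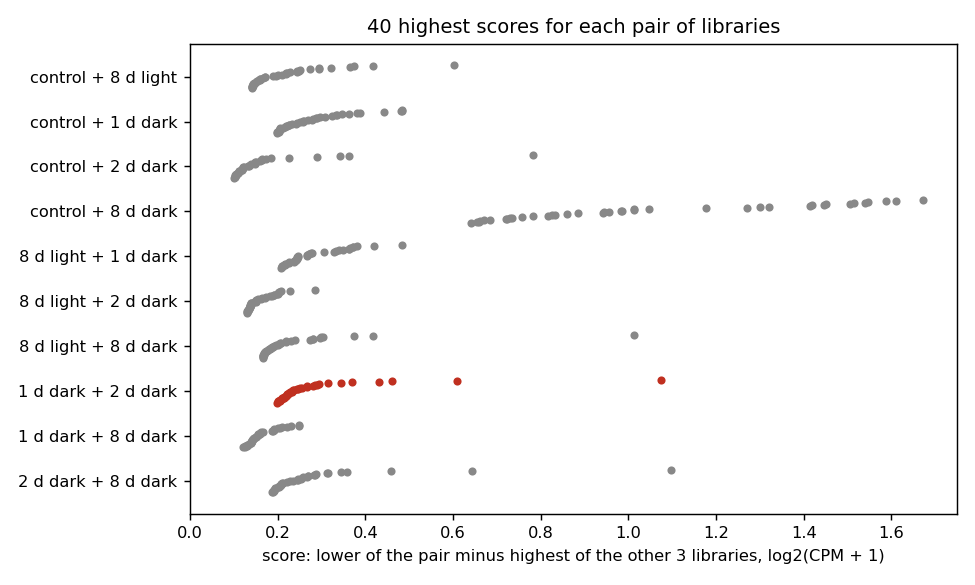
The 40 highest scores (log2 units, horizontal axis) for each of the 10 pairs of libraries (rows), with the 1-day and 2-day dark-return pair in red. The red points run from 1.08 to 0.198 and, apart from the first 2, lie where most other pairs also have points; the control and 8-day pair runs higher, to 1.67.

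The 40 differed in where the other libraries stood, and the lowest library was used to describe this. In 24 the control was lowest, in 11 the light library, and in 5 the library after 8 days in the dark. Part of this sorting was within counting error. Among the 11, the interval of light to control included 1 for SmedASXL_000375, SmedASXL_011766 and SmedASXL_008281. Among the 5, that of 8 days to light included 1 for SmedASXL_019576. The highest level was at 1 day for 23 transcripts and at 2 days for 17, and the rule allows no other library. Of all 12878 transcripts, 15.7% were highest at 1 day and 10.1% at 2 days. No such share was computed for the lowest library or for the library that sets the score, so those counts are description only. The highest of the 3 reference libraries, which sets the score, was the light library for 19 transcripts, the 8-day library for 16 and the control for 5. Those 5 were SmedASXL_000483, SmedASXL_009251, SmedASXL_008281, SmedASXL_019576 and SmedASXL_004124. The 5 lowest after 8 days were SmedASXL_001082, SmedASXL_017424, SmedASXL_009251, SmedASXL_019576 and SmedASXL_018749.

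**Figure D3:**
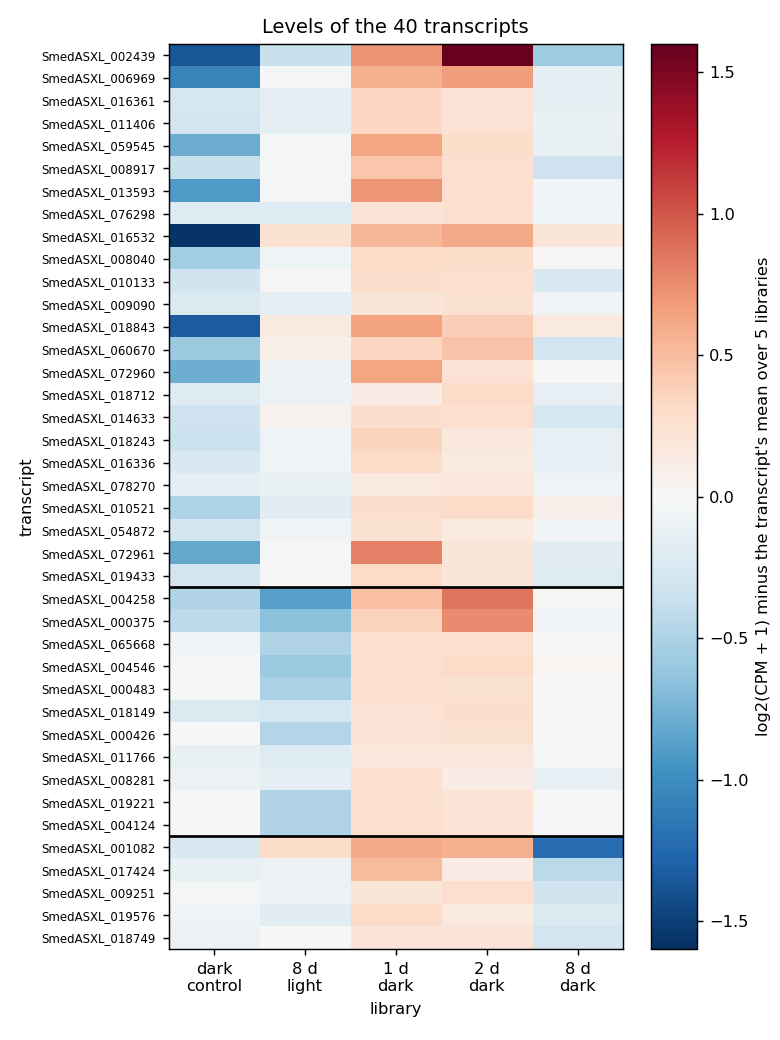
log2(CPM + 1) of the 40 transcripts (rows) in the 5 libraries (columns), each minus the transcript's own mean, with blue below and red above the mean. Black lines separate the 24 lowest in the control, the 11 lowest in light and the 5 lowest after 8 days in the dark; rows within a block are ordered by score.

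Among the 24 lowest in the control, the median log2 ratio of light to control was 0.33, and a further 0.42 separated the 1-day library from light. The sorting by lowest library fixes that direction. The ratio of light to control ran from 0.00 to 1.81 log2 units, and for 4 of the 24, SmedASXL_076298, SmedASXL_011406, SmedASXL_009090 and SmedASXL_078270, its counting interval included 1. SmedASXL_016532 had the highest ratio of light to control, with 15.8 CPM in the control, 58.1 CPM in light, 70.8 and 74.6 CPM after 1 and 2 days, and 56.0 CPM after 8 days. Light stood 3.68-fold above the control (counting interval 3.37 to 4.01) and the 1-day library 1.22-fold above light (1.15 to 1.29). SmedASXL_018843, among the most abundant of the 40, had 83.2 CPM in the control, 234 CPM in light, 331 and 279 CPM after 1 and 2 days, and 236 CPM after 8 days. In both, the 8-day level was within counting error of the light level and stayed far from the control: the ratio of 8 days to light was 0.963 (0.910 to 1.02) for SmedASXL_016532 and 1.01 (0.980 to 1.04) for SmedASXL_018843.

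Over all 40, 9 were at least 1.5-fold higher in light than in the control and 0 at least 1.5-fold lower, on the CPM + 1 scale; of all 12878 transcripts, 4.60% were higher and 5.35% lower by that much (593 and 689 transcripts, or 656 and 635 with median-of-ratios scaling, which turns the balance). After 8 days in the dark, 8 were at least 1.5-fold above the control and 1 below it, where the background was 3.34% and 2.73%. That background is 430 higher and 351 lower transcripts, and its balance turned to 309 and 418 with trimmed-mean scaling and 342 and 399 with median-of-ratios scaling. Both comparisons share the control and both enter the score, so nothing further is read from these counts. The 1 below the control was SmedASXL_001082, with 6.93 CPM in the control, 10.5 CPM in light, 13.3 and 12.9 CPM after 1 and 2 days, and 3.04 CPM after 8 days. Its 8-day level was 3.46-fold under light (2.86 to 4.21) and 2.28-fold under the control (1.87 to 2.79), the widest separation of the 8-day library from light among the 40. SmedASXL_017424 was likewise lowest at 8 days, with 85.0, 85.9, 131, 101 and 68.2 CPM in the control, in light and after 1, 2 and 8 days.

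The transcripts lowest in light are described through 6 that were picked for a like course. SmedASXL_004546, SmedASXL_000483 and SmedASXL_004124 had the lowest ratios of light to control. Another 3, making 6 in all, kept 1 read ratio with each of them: SmedASXL_065668, SmedASXL_000426 and SmedASXL_019221. Of the 15 pairs among the 6, this choice fixed 9; chi-square values over all 15 ran from 0.235 to 8.29, and mean levels from 10.04 to 60.9 CPM. SmedASXL_004546 had 31.1 CPM in the control, 20.6 CPM in light, 38.1 and 39.0 CPM after 1 and 2 days, and 32.2 CPM after 8 days. SmedASXL_019221 had 59.7, 42.6, 71.9, 69.9 and 60.2 CPM in the same order, and SmedASXL_004124 had 9.96, 6.79, 12.1, 11.6 and 9.71 CPM. The 6 were lower in light than in the control by log2 ratios of -0.57 to -0.43. They stood above the control after 1 day by 0.22 to 0.32 and after 2 days by 0.20 to 0.33. After 8 days their log2 ratio to the control was -0.03 to 0.07, and all 6 counting intervals of that ratio included 1. The choice of the 6 fixed the low level in light, and the score fixed the early levels above the control. The read ratio covers every library, so it also tied the 8-day to control ratios of the 3 added transcripts to the first 3. Whether the 6 contigs come from 1 gene or share sequence was not tested.

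**Figure D4:**
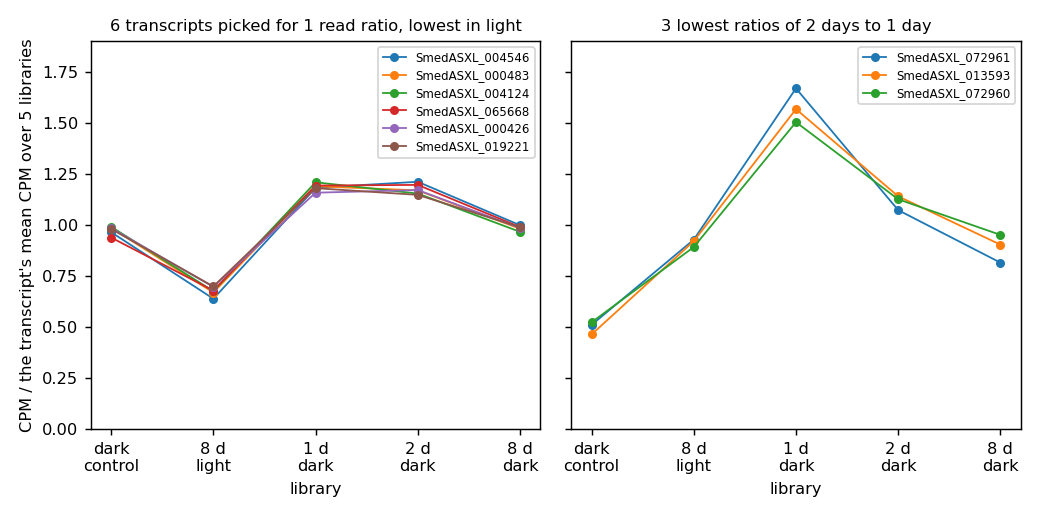
Level relative to each transcript's own mean CPM over the 5 libraries (vertical axis from 0) by library. Left, the 6 transcripts lowest in light that were picked for keeping 1 ratio overlie each other; right, the 3 transcripts with the lowest ratio of 2 days to 1 day have their highest point at 1 day and their lowest in the control.

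The step from 1 to 2 days in the dark does not enter the score as a contrast, although both libraries do. The median log2 ratio of 2 days to 1 day was -0.01 over the 40 and 0.00 over all transcripts tested. At least 1.5-fold differences were found for 1 higher and 1 lower transcript, 2.50% of the 40 in each direction. Of the 12878, 0.0777% were higher and 0.194% lower. With median-of-ratios scaling the lower transcript no longer reached 1.5-fold. Each share of the 40 is 1 transcript and the rule used both libraries, so nothing further is read from these shares. The higher one was SmedASXL_002439, 1.85-fold above its 1-day level (1.71 to 1.99). SmedASXL_004258 and SmedASXL_000375 followed, 1.32-fold (1.16 to 1.5) and 1.35-fold (1.16 to 1.56) higher at 2 days. For 22 of the 40 the counting interval of this ratio included 1. The same share over the 12878 was not computed, so that count is description only.

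Transcripts already past their highest level at 2 days were led by SmedASXL_072961. It stood at 11.8 CPM in the control, 21.4 CPM in light, 38.5 CPM at 1 day, 24.7 CPM at 2 days and 18.8 CPM at 8 days of dark return, so the 1-day level was 1.56-fold above that at 2 days (1.44 to 1.68). SmedASXL_013593 had 6.75, 13.4, 22.8, 16.6 and 13.2 CPM in the same order, and SmedASXL_072960 had 7.31, 12.5, 21.0, 15.7 and 13.3 CPM. Their 1-day levels were 1.37-fold (1.252 to 1.51) and 1.33-fold (1.21 to 1.47) above those at 2 days. SmedASXL_072960 and SmedASXL_072961 were the single pair of the 40 with neighbouring contig numbers, but their reads did not keep 1 ratio (chi-square 16.9). SmedASXL_013593 and SmedASXL_072960 did (chi-square 4.24). SmedASXL_059545, at 2.46, 4.94, 8.32, 6.39 and 4.54 CPM, had 1194 reads over the 5 libraries and stayed under the same chi-square point with each of these 3. It passed the level filter only through the early libraries, with a mean of 3.98 CPM in the other 3.

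**Figure D5:**
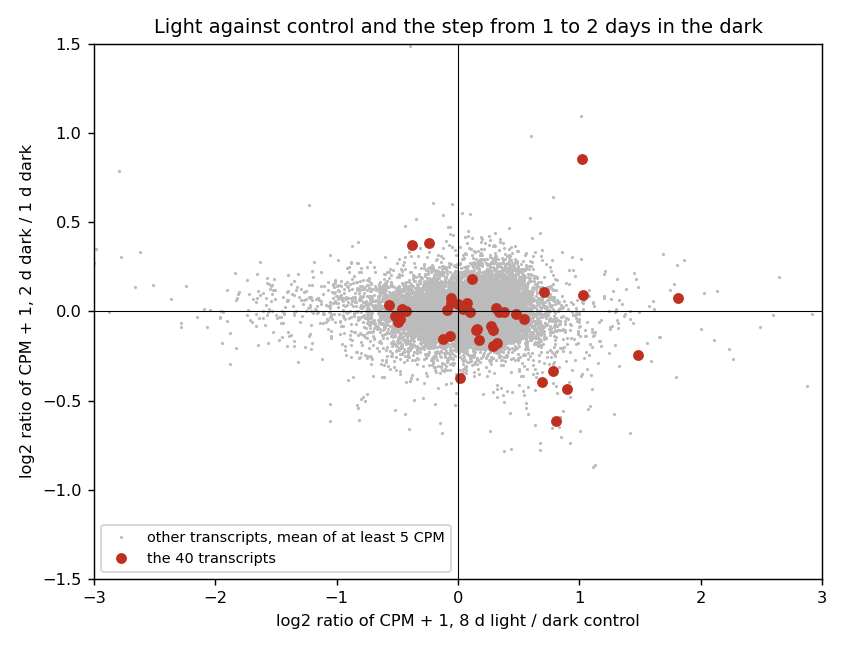
log2 ratio of 2 days to 1 day in the dark (vertical axis) against log2 ratio of light to control (horizontal axis), both of CPM + 1, for the 40 transcripts (red) and the other 12838 that passed the level filter (grey, 13 of them outside the axes). SmedASXL_002439 is the uppermost red point at 0.86 and SmedASXL_072961 the lowest at -0.62; the red points spread from -0.57 to 1.81 along the horizontal axis.

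Over all 780 pairs of the 40, 106 kept 1 read ratio within counting noise, which is 13.6%, against 15.7% of the pairs among all 12878 transcripts. The 40 had a lower median level than all 12878 and were chosen for a difference between libraries. These shares therefore cannot tell whether shared profiles were more or less frequent among the 40. Of the 40, 7 had no such partner. Those 7 were SmedASXL_002439, SmedASXL_006969, SmedASXL_016532, SmedASXL_001082, SmedASXL_018843, SmedASXL_060670 and SmedASXL_017424. Transcripts with few reads pass this comparison more easily, but the number of partners did not follow reads alone. SmedASXL_076298, on 1170 reads, had 18 partners, SmedASXL_000375, on 1289 reads, had 1, and SmedASXL_016336, on 22895 reads, had 9. The most abundant of the 40, SmedASXL_018149, stood at 1876 CPM in the control, 1806 CPM in light, 2591 and 2674 CPM after 1 and 2 days, and 2213 CPM after 8 days. On 503716 reads its 8-day level was 1.18-fold above the control (1.17 to 1.19) and under both early levels, as the score requires. Of all 12878 transcripts, 66.4% stood above the control at 8 days. SmedASXL_018712 had 359, 388, 454, 514 and 380.4 CPM in the control, in light and after 1, 2 and 8 days. Its 8-day level was within counting error of light, at a ratio of 0.981 (0.960 to 1.002), and 1.06-fold above the control (1.04 to 1.08).

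Relative to the light library, 15 of the 40 were at least 1.5-fold higher after 1 day and 10 after 2 days; the background was 0.536% and 0.481% of the 12878. Relative to the control, 22 and 17 were that much higher at 1 and 2 days, with a background of 3.86% and 3.64%. The 8-day library was at least 1.5-fold under the 1-day library for 10 of the 40 and under the 2-day library for 8, with a background of 1.3% and 0.613%. The rule used these contrasts, so the counts are a description. After 8 days 3 of the 40 were still at least 1.5-fold above light and 1 was below it, where the background was 2.05% higher and 1.43% lower. The 3 were SmedASXL_004258, SmedASXL_004546 and SmedASXL_000375, and the 1 was SmedASXL_001082. With trimmed-mean or median-of-ratios scaling these counts were 1 higher and 1 lower, so 2 of the 3 lay close to the threshold. With median-of-ratios scaling the split over all transcripts changed from 264 higher and 184 lower to 218 and 233. The 8-day level lay between the control and light for 19 of the 40, above both for 16 and below both for 5. Of all 12878, 36.8% lay above both and 14.1% below both. Levels above light at 1 and 2 days and below it at 8 days, with each counting interval excluding 1, were found for 11 of the 40 and for 0.963% of the 12878; the score favours that shape.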

How the data were processed

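Whole-animal RNA of 5 conditions was selected for poly(A) and read from 1 end over 50 bases, as the labels' protocols and design text state. The treatment text in the labels describes another experiment, so groups were taken from the titles. Reads had 15 bases trimmed from the 3' end and were aligned with bowtie2 to the assembled transcriptome, per the design text; bcl2fastq 1.8.3 and Bowtie2 2.2.4 appear in the submitters' processing notes. The counting of reads that match more than 1 contig, and the use of strand, are not given in the sources used here. The authors deposited CPM plus 1, per the file headers. After subtracting 1, all values were whole multiples of 1 read to within 0.001 reads, so reads were computed from them. The authors' deposited ratio or fold column of control to light was not used. Of the per-sample columns, 0 were left unused.

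With 1 library per condition, no difference between conditions was tested. Folds used CPM + 1, with a threshold of 1.5-fold, which understates the difference of low transcripts. Ratios of CPM carry exact conditional binomial (Clopper-Pearson) 95% intervals and levels exact Poisson intervals. Reads carry no molecular identifiers, so these cover counting error only. A pair was said to keep 1 ratio where the chi-square of its reads over the 5 libraries was under the 95% point; this compares reads of these libraries, unadjusted over the 780 pairs. Named transcripts were the 12 highest scores, the 2 on each side of the limit of the set, and fixed numbers of extremes by mean level and by the ratios of 2 days to 1 day, light to control and 8 days to control, plus some that keep 1 ratio with one of them. Transcripts named for a count of 7 or fewer, or among the 11 whose direction differed between times, were chosen after their values were seen. The 40 transcripts and these choices were made with earlier results of these data known. The calculation was tested on simulated data with counting noise only, in which raised transcripts had higher levels and larger folds than most of the 40. That test does not cover differences between pools. Python 3.11.15, numpy 2.4.6, scipy 1.17.1 and matplotlib 3.10.9 were used. Alternatives were pseudocounts of 0.1 and 5 CPM, other level filters and thresholds, 3 other scalings, and scores without 1 library.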

Additional observations from a re-analysis of the deposited data

Results flagged for a closer look

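For 11 of the 40 transcripts the direction relative to the light library differed between the early and the late dark-return libraries: both early libraries stood above light and the 8-day library below it, with each counting interval excluding 1. Of all 12878 transcripts, 124 (0.963%) met the same condition. The choice of the 40 favours this shape, each time point is 1 library, and whether the time points differ was not tested. SmedASXL_001082 had by far the lowest 8-day log2 ratio to light of these, -1.51, after 0.31 and 0.27 at 1 and 2 days. SmedASXL_060670 followed at -0.41, then SmedASXL_017424 and SmedASXL_014633, both at -0.33. SmedASXL_018749 was at -0.31 and SmedASXL_008917 at -0.30. SmedASXL_010133 was at -0.25 and SmedASXL_009251 at -0.23. SmedASXL_002439 and SmedASXL_019433 were both at -0.21, and SmedASXL_072961 was at -0.18. For SmedASXL_002439, SmedASXL_010133 and SmedASXL_019433 the interval of the ratio of CPM ended at 0.979, 0.975 and 0.977, close to 1.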

How the results depend on the processing

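No paired analysis was possible because each condition has 1 library. Which transcripts make up the 40 depends on the level filter and on every library: 16 were shared with the reported 40 under no filter, 21 with a mean of at least 1 CPM, and 28 to 38 under the remaining filter, pseudocount and scaling alternatives. Scored without the control, light, 1-day, 2-day or 8-day library, 19, 6, 21, 15 and 18 of the 40 were shared. The 40th score stayed between 0.166 and 0.246 under all pseudocounts, scalings and filters. With median-of-ratios scaling 5 other pairs of libraries reached the 40th score of the early pair, against 3 as reported and 2 to 4 under the other alternatives. With a pseudocount of 5 CPM, the transcripts of the 40 past 1.5-fold numbered 9 at 1 day and 6 at 2 days against light. They numbered 1 at 2 days against 1 day, 1 at 8 days against light and 4 at 8 days against the control. Each of these was higher except the 1 at 8 days against light, which was lower. Of all 12878, 37 were higher and 12 lower at 1 day against light, and 29 and 16 at 2 days. The rest, in the same order, were 5 and 7, 165 and 122, and 207 and 259. At a threshold of 25% in place of 50%, 29 and 23 of the 40 passed at 1 and 2 days against light, all of them higher. The numbers were 8 for 2 days against 1 day (3 higher, 5 lower) and 21 for light against the control (14 higher, 7 lower). For 8 days against light the number was 12 (8 higher, 4 lower). In that order, 3.13%, 2.43%, 0.668%, 22% and 8.22% of all 12878 were higher. Those lower were 1.28%, 1.12%, 1.06%, 14% and 5.26%. At 2-fold the numbers among the 40 were 3, 3, 0, 4 and 1 in the same order, and 2 for 8 days against the control. All were higher except the 1 for 8 days against light, which was lower. Of all transcripts, 0.0777%, 0.0854%, 0.0233%, 0.831%, 0.52% and 0.567% were that much higher in these comparisons. The lower shares were 0.0544%, 0.0544%, 0%, 1.64%, 0.326% and 0.971%. For 2 days against 1 day, median-of-ratios scaling left 1. For 8 days against light, median-of-ratios and trimmed-mean (TMM) scaling each left 2. Over all transcripts, the split past 1.5-fold moved by over 10 percentage points in 3 further cases. For 8 days against the control it was 430 higher and 351 lower as reported, 309 and 418 with TMM and 342 and 399 with median-of-ratios scaling. With median-of-ratios scaling it moved from 69 and 17 to 52 and 27 for 1 day against light, and from 10 and 25 to 12 and 17 for 2 days against 1 day. For light against the control it turned from 593 and 689 to 656 and 635 with median-of-ratios scaling. Scaling moved the median of all transcripts by at most 0.07 log2 units. The causes were not tested.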
